A study of Mus musculus with 6 samples.

Results

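The genes described here are 9 that are used to recognise neurons of the cerebellar nuclei or that build the cytoskeleton of large axons: Slc17a6, Vamp1, Nefl, Nefm, Nefh, Meis2, Lhx9, Tbr1 and Spp1. They were taken by name from a table of 55098 genes, and all 9 were found. The table came from RNA-seq of whole cerebella of 60-day-old (P60) male mice. It held 3 libraries labelled Slc39a14 knockout (KO, animals 2, 4 and 6) and 3 labelled Slc39a14 wild type (WT, animals 1, 3 and 5), 1 animal each. Slc39a14 encodes ZIP14, a transporter of manganese and other metals, and the series presents the knockout as a mouse model of a dystonia with parkinsonism due to manganese. The labels name no strain, no tissue-specific promoter and no deleted part of Slc39a14.

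The cerebellar nuclei are the output station of the cerebellum. Their glutamatergic neurons receive inhibition from Purkinje cells and send long, thick, fast axons to the thalamus, midbrain and brainstem. Such axons are filled with neurofilaments, polymers of a light, a medium and a heavy chain that set axon calibre. Markers of these neurons are shared with other places: Lhx9, Meis2 and Slc17a6 are also transcribed in the midbrain, Tbr1 in the cerebral cortex, and neurofilament genes in Purkinje and basket cells, so that a whole-tissue library cannot assign them to the nuclei alone.

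Library totals lay between 13805997 and 15788135 counts, and 1 count was worth 0.0629 to 0.0733 CPM (counts-per-million units, scaled by the trimmed mean of M values). Slc39a14 itself averaged 42.3 ± 3.18 CPM in KO libraries and 42.4 ± 1.33 CPM in WT libraries (SD, n = 3 each), so its whole-gene count gave no check of the genotype labels. KO and WT below mean the libraries so labelled. Defining markers of the labelled tissue were high in every library: 13 Purkinje cell markers summed to between 8090.4 and 9496 CPM in KO and between 7657 and 8640.2 CPM in WT. The 12 granule cell markers summed to between 7396 and 7636 CPM in KO and between 7848 and 8358 CPM in WT.

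The library KO 4 stood apart in genes that mark other brain regions. Dlx1, a homeobox gene of forebrain inhibitory neurons, had 3, 44 and 3 counts in KO 2, 4 and 6, against 4, 0 and 4 in WT 1, 3 and 5. Over a list of 14 forebrain neuron markers, chosen after the values of Tbr1 and Lhx9 were seen, 12 were highest in KO 4. Of all tested genes 20.3% were highest in KO 4. Their sum was 13.1, 36.4 and 15.1 CPM in KO 2, 4 and 6, against 16.8, 13.1 and 15.0 CPM in WT 1, 3 and 5. The 12 midbrain neuron markers, chosen in the same way, went the other way in KO 4, with a sum of 16.3, 5.93 and 11.8 CPM in KO 2, 4 and 6 and of 15.0, 17.4 and 17.8 CPM in WT 1, 3 and 5. Of these 12, 8 were lowest in KO 4, as were 21.8% of tested genes, and 2 (Foxa1 and Foxa2) were at 0 in every library. The midbrain sum of KO 6 also lay below that of every WT library. The 6 tested midbrain markers were all negative, with a median log2 fold change of -0.73, and -0.36 without KO 4, and 0 were called. The part of both lists in the results below was not tested. The members' fitted values without KO 4 are given beside those with it or in the plot of fold changes.

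**Figure D1:**
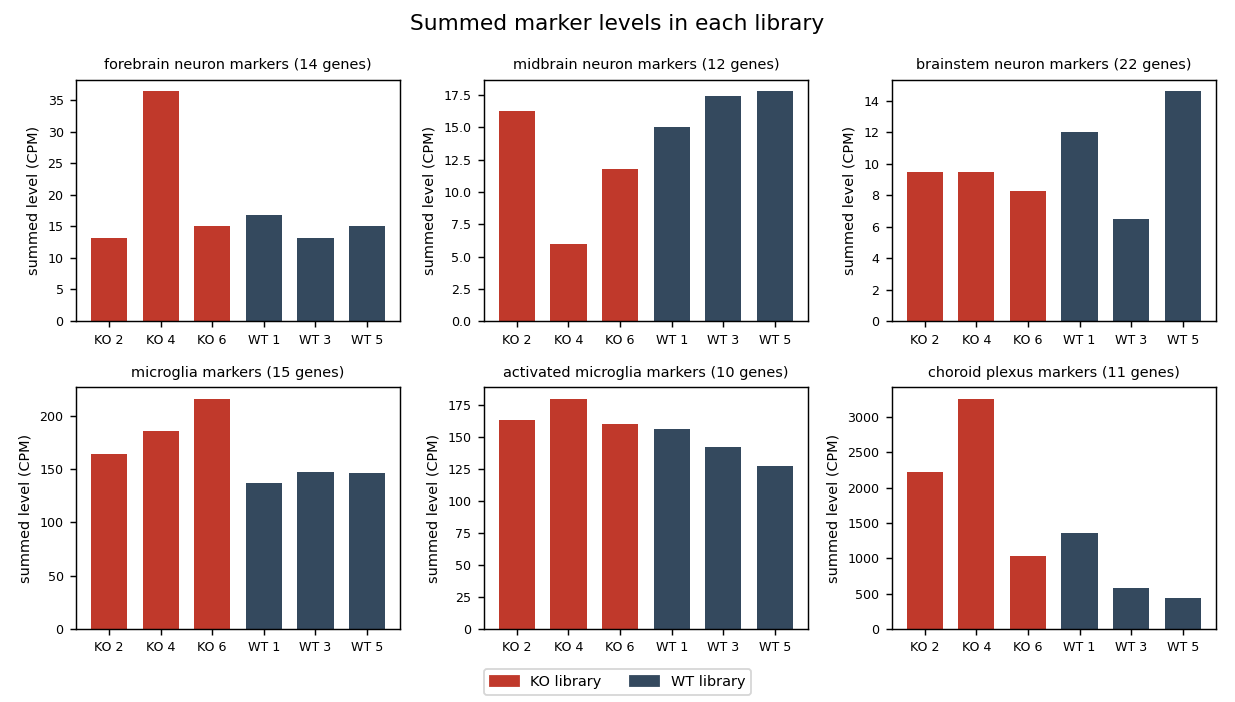
Summed level (CPM) of 6 marker lists in each KO (red) and WT (dark blue) library; each bar is 1 library. KO 4 is highest for forebrain markers (36.4 CPM) and choroid plexus markers and lowest for midbrain markers (5.93 CPM).

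None of the 9 genes passed the comparison of KO with WT. After a filter on low counts 8 of the 9 were tested, Tbr1 having too few counts, and 0 of these 8 passed edgeR's quasi-likelihood test at an adjusted p under 0.05, where 0.0467% of the 17142 tested genes did. At an unadjusted p under 0.05 the members again numbered 0 (2.75% of tested genes), and DESeq2 and limma-voom on the same genes called 0 as well. The KO and WT libraries separated without overlap for 0 of the 9 genes, against 7.26% of tested genes in either direction and 3.68% with KO lower. Fitted values were below 0 for 7 of the 8, with a median log2 fold change of -0.15, against a median of -0.004 and 51.2% below 0 over all tested genes. Without KO 4 the median of the same 8 was -0.09, 6 were below 0, and 0 passed (0.0971% of genes tested without KO 4).

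Much of the spread lay in KO 4 and WT 5. Of the 9 genes 6 were lowest in KO 4, as were 21.8% of tested genes, and 6 were highest in WT 5, as were 22.7%. Both held for 5 genes (Slc17a6, Vamp1, Nefm, Meis2 and Lhx9), and for 2.71% of tested genes. WT 5 also had the highest sum of 22 brainstem neuron markers (9.5, 9.5 and 8.26 CPM in KO 2, 4 and 6, against 12, 6.51 and 14.6 CPM in WT 1, 3 and 5), and its part was not tested. The within-group SD of log2 CPM was 1.40 for Tbr1, 1.25 for Lhx9, 0.47 for Slc17a6 and 0.37 for Meis2, and 0.23 or less for the other 5 genes.

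**Figure D2:**
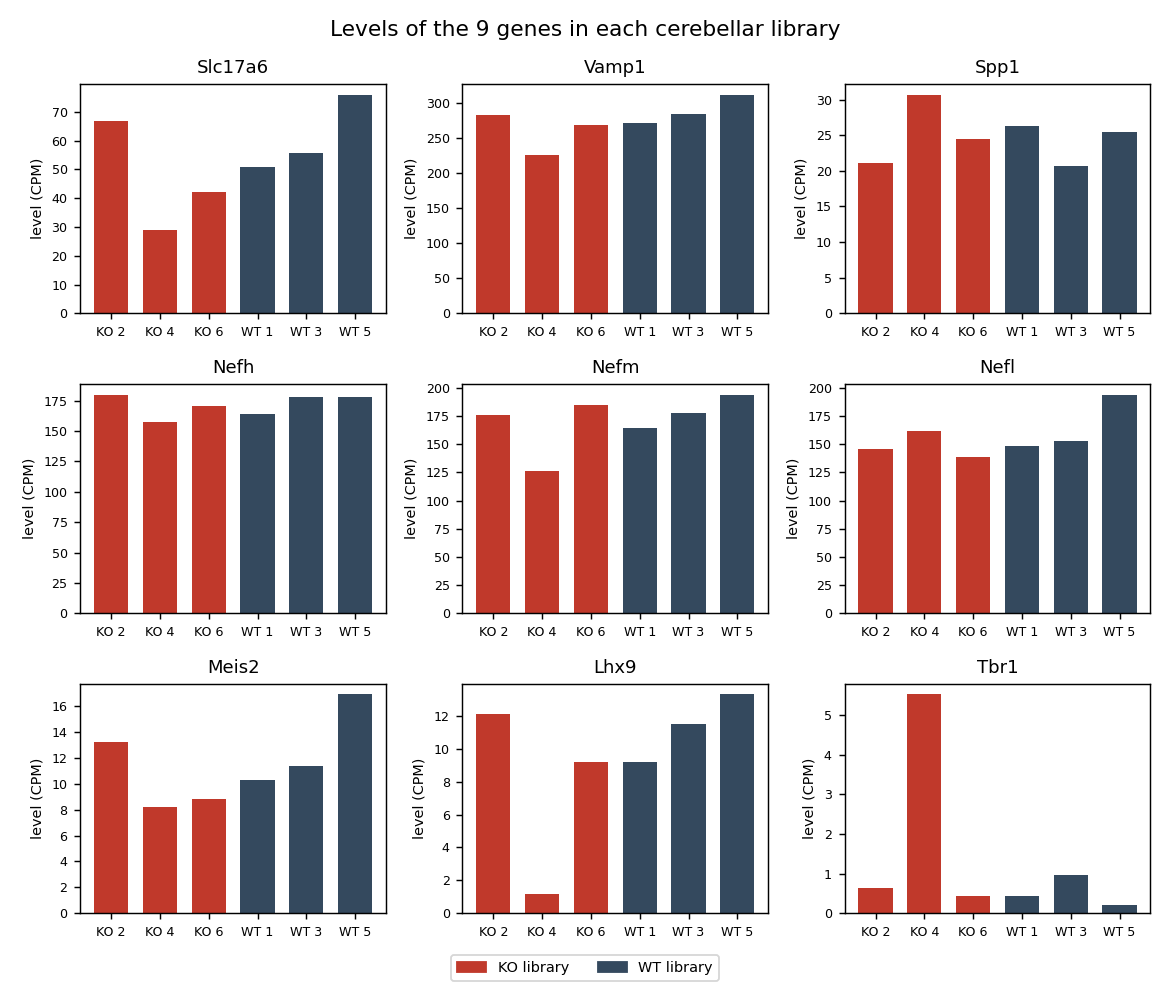
Level (CPM) of each gene in every library, with KO in red and WT in dark blue; each bar is 1 library and axes start at 0. Lhx9 is at 1.19 CPM and Tbr1 at 5.52 CPM in KO 4, apart from the other libraries, while Nefh lies between 157 and 180.0 CPM throughout.

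On the per-length scale of FPKM (fragments per kilobase of gene, scaled to the library total by the authors) the order of mean levels over the 6 libraries was Nefl (44.3), Nefh (40.9), Nefm (28.2), Vamp1 (25.7), Spp1 (14.3), Slc17a6 (9.45), Lhx9 (0.947), Meis2 (0.910) and Tbr1 (0.237 FPKM). Nefl lay above Nefh in 4 of 6 libraries, so this pair did not hold its order. Nefm lay above Vamp1, Lhx9 above Meis2, and Meis2 above Tbr1 in 5 of 6 libraries each. The other neighbours held their order in all 6.

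Slc17a6 encodes VGLUT2, the transporter that loads glutamate into synaptic vesicles of nuclear and brainstem neurons. It lies on chromosome 7 (51622006 to 51671119, plus strand, GRCm38.p6). It was at 66.9, 29.1 and 42.0 CPM in KO 2, 4 and 6, against 50.9, 55.8 and 76.0 CPM in WT 1, 3 and 5. KO 4 and KO 6 were the lowest libraries, but KO 2 was second only to WT 5, so the groups overlapped. The log2 fold change was -0.40 (SE 0.27, 95% interval from -0.99 to 0.19, edgeR adjusted p = 1.0), and -0.16 without KO 4 (interval from -0.64 to 0.33). In a bulk library, fewer cells of a type and less RNA per cell cannot be told apart.

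The ratio of Slc17a6 to Slc17a7 was computed within each library, since Slc17a7 encodes VGLUT1, the vesicular transporter of the far more numerous granule cells. On FPKM it was 0.150, 0.0772 and 0.0795 in KO 2, 4 and 6, against 0.0946, 0.118 and 0.205 in WT 1, 3 and 5. The difference of mean log2 ratios was -0.44 (-3.36 ± 0.54 in KO libraries and -2.92 ± 0.58 in WT libraries, n = 3 each, SD; two-sided exact permutation p = 0.5, Benjamini-Hochberg 0.96 over 6 ratios). The smallest p that 3 against 3 libraries allow is 0.1.

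Vamp1 encodes a vesicle SNARE protein of fast-firing neurons, the partner of the membrane SNAREs in transmitter release. It lies on chromosome 6 (125215551 to 125245964) and was the steadiest of the synaptic members, at 283, 226 and 268 CPM in KO 2, 4 and 6 and at 271, 284 and 312 CPM in WT 1, 3 and 5. KO 4 was the lowest library and WT 5 the highest. Its log2 fold change was -0.16 (SE 0.11, interval from -0.40 to 0.09, edgeR adjusted p = 1.0). Without KO 4 it was -0.06 (interval from -0.29 to 0.16). Relative to Vamp2, the vesicle SNARE used by most synapses, the log2 FPKM ratio was -2.69 ± 0.23 in KO libraries and -2.61 ± 0.13 in WT libraries (n = 3 each, SD; exact permutation p = 0.8, Benjamini-Hochberg 0.96). Its span overlaps Tapbpl and Cd27 on the opposite strand, with 0 shared exon bases in GENCODE release M21.

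The 3 neurofilament chains were close in level between the groups. Nefh, the heavy chain, whose long phosphorylated tail projects from the filament, was at 180.0, 157 and 170.4 CPM in KO 2, 4 and 6 and at 164, 178 and 178 CPM in WT 1, 3 and 5. The libraries overlapped, and the log2 fold change was -0.04 (SE 0.09, edgeR adjusted p = 1.0) with a 95% interval from -0.24 to 0.17, the narrowest of the 8. Its within-group SD of log2 CPM (0.09) lay at the 9.86th percentile of tested genes. Nefh is on chromosome 11 (4938754 to 4948064).

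Nefm, the medium chain, was at 176, 126 and 185 CPM in KO 2, 4 and 6 and at 164, 178 and 194 CPM in WT 1, 3 and 5. KO 4 alone lay below the range of WT. The log2 fold change of -0.14 (SE 0.14, interval from -0.46 to 0.18, edgeR adjusted p = 1.0) became 0.02 without KO 4 (interval from -0.22 to 0.25).

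Nefl, the light chain that forms the filament core, was at 146, 162 and 139 CPM in KO 2, 4 and 6, against 148, 153 and 194 CPM in WT 1, 3 and 5. WT 5 stood above the other libraries, and KO 4 was not low. The log2 fold change was -0.15 (SE 0.12, interval from -0.42 to 0.12, edgeR adjusted p = 1.0). It was -0.21 without KO 4 and -0.02 without WT 5.

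The chains were then set against one another within libraries. The ratio of Nefm to Nefl on FPKM was 0.707, 0.456 and 0.782 in KO 2, 4 and 6, against 0.649, 0.680 and 0.586 in WT 1, 3 and 5. KO 4 was the lowest library and KO 6 the highest. The mean log2 ratio was -0.66 ± 0.41 in KO libraries and -0.65 ± 0.11 in WT libraries (n = 3 each, SD; exact permutation p = 1.0), a difference of -0.01, and it was 0.22 without KO 4. For Nefh to Nefl the log2 ratio was -0.05 ± 0.20 in KO and -0.16 ± 0.18 in WT (exact permutation p = 0.5, n = 3 each). For Nefl to Ina, the gene of alpha-internexin, a further neuronal filament subunit, it was -0.60 ± 0.17 in KO and -0.56 ± 0.25 in WT (exact permutation p = 0.8, n = 3 each). The adjusted values of these ratios were 0.96 or 1.0.

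Nefm and Nefl are neighbours on chromosome 14 that overlap on opposite strands, Nefm from 68082590 to 68124846 on the minus strand and Nefl from 68083863 to 68089095 on the plus strand. In GENCODE release M21 they share 1108 exon bases, of 3380 in Nefl and 5782 in Nefm. The sources used here do not say whether counting used strand, so the split of reads between both genes, and their ratio, are uncertain to that extent. They also lie 2.18 and 2.21 Mb from Slc39a14 (70303469 to 70351425), the edited gene. Within 5 Mb of it 69 genes were tested, of which 0 passed, 5 had an unadjusted p under 0.05 and the median log2 fold change was -0.02.

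**Figure D3:**
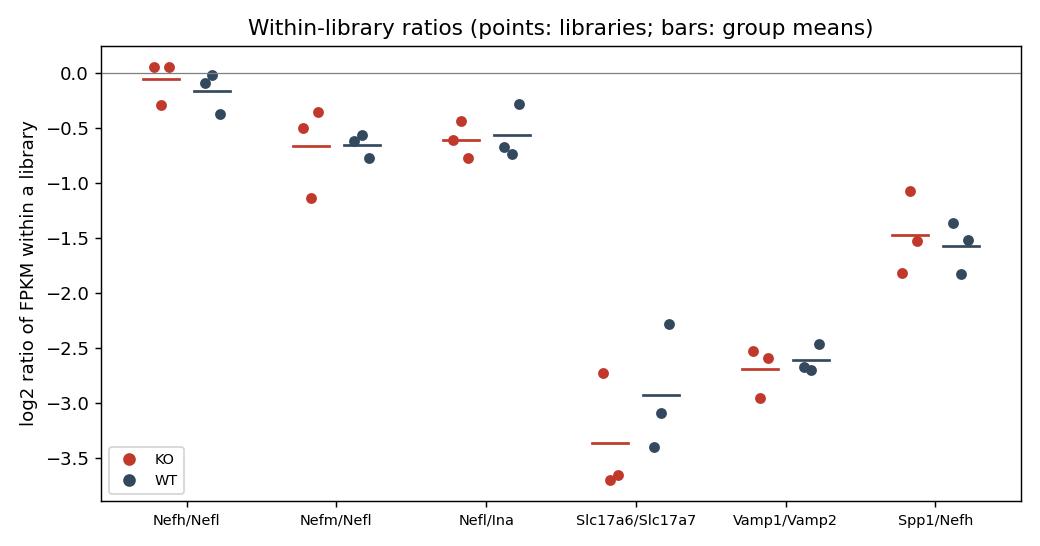
Log2 ratio of FPKM values of 2 genes within a library; points are single libraries (KO red, WT dark blue) and bars are group means. KO and WT points overlap for each of the 6 ratios, and KO 4 is the low point of Nefm/Nefl.

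Among the transcription factors of nuclear neurons, Lhx9 and Tbr1 varied more between animals than any other member, and Meis2 less than Slc17a6. Meis2, a homeodomain protein that acts with PBX partners, lies on chromosome 2 (115863064 to 116065839). It was at 13.2, 8.24 and 8.83 CPM in KO 2, 4 and 6, against 10.3, 11.4 and 16.9 CPM in WT 1, 3 and 5. KO 4 and KO 6 were lowest and KO 2 lay within the WT range (log2 fold change -0.35, SE 0.24, interval from -0.88 to 0.19, edgeR adjusted p = 1.0). Without KO 4 the value was -0.21 (interval from -0.78 to 0.35).

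Lhx9, a LIM-homeodomain factor of glutamatergic nuclear and midbrain neurons, lies on chromosome 1 (138825186 to 138848577). It had 192, 17 and 128 counts in KO 2, 4 and 6, against 127, 180 and 182 in WT 1, 3 and 5. In CPM these were 12.1, 1.19 and 9.19 in KO, and 9.22, 11.5 and 13.3 in WT. Only KO 4 stood apart, its 17 counts having an exact 95% Poisson interval of 9.9 to 27.2 for counting error. On the log2 CPM scale KO 4 lay at -3.06 from the mean of the other 5 libraries, and 5 of 17142 tested genes, Lhx9 among them, were as low or lower there. The log2 fold change of -0.59 (SE 0.55, interval from -1.82 to 0.63, edgeR adjusted p = 1.0) was -0.09 without KO 4 (interval from -0.56 to 0.38). The midbrain list was low in the same library, and its part in the value was not tested. Sox14, a marker of inhibitory nuclear neurons that is also transcribed in the midbrain, had 13, 0 and 13 counts in KO 2, 4 and 6, against 12, 13 and 12 in WT. The 0 in KO 4 had an exact 95% Poisson interval of 0 to 3.69 counts. Sox14 belongs to a list of 7 other nuclear markers, of which 1 was lowest and 4 were highest in KO 4 (21.8% and 20.3% of tested genes). Slc6a5, a further gene of inhibitory nuclear neurons, was at 34.8, 43.1 and 34.5 CPM in KO 2, 4 and 6. In WT 1, 3 and 5 Slc6a5 was at 40.1, 36.1 and 38.6 CPM.

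Tbr1, a T-box factor of the medial nucleus and of cortical neurons, lies on chromosome 2 (61802930 to 61814114) and showed the opposite pattern. It had 10, 79 and 6 counts in KO 2, 4 and 6, against 6, 15 and 3 in WT 1, 3 and 5. The 79 counts of KO 4 (exact Poisson interval 62.5 to 98.5) lay above every other library, and KO 2 and KO 6 lay within the WT range. On the log2 CPM scale KO 4 lay 3.17 above the mean of the other 5, a value reached by 4 tested genes. With no filter on low counts Tbr1 was the 1 member called (log2 fold change 1.98, SE 0.47, edgeR adjusted p = 0.00709, where 0.443% of 32046 genes passed). With KO 4 left out of that fit it was at -0.03 (interval from -1.51 to 1.45, edgeR adjusted p = 0.998). In the authors' deposited table Tbr1 had a log2 fold change of 2.01 with an unadjusted p of 0.0197 and an adjusted p of 1.0. The forebrain list was high in the same library, and its part was not tested.

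The 300-base windows around the annotated starts of Slc17a6, Lhx9 and Tbr1 are shown because these are the members with the largest spread over the 6 libraries, and Lhx9 and Tbr1 went opposite ways in KO 4. They run from 250 bases before the start to 50 after it, 5′ to 3′ on the gene's strand, from RefSeq on GRCm38.p6, at chr7:51621580-51621879 (plus, the upstream of 2 entries for Slc17a6), chr1:138842395-138842694 (minus) and chr2:61804203-61804502 (plus). The windows of Lhx9 and Tbr1 lie inside the gene spans given above, not at the 5′ ends of those spans. Capitals mark matches, on either strand, to a MEIS core (TGACAG or CTGTCA) and to a homeobox core (TAATTA).
Slc17a6: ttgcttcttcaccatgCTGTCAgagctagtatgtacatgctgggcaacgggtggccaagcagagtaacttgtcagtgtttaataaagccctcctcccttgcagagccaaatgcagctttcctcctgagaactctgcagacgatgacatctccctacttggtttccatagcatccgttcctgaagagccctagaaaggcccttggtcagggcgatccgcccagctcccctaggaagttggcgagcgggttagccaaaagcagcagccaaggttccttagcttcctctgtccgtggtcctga
Lhx9: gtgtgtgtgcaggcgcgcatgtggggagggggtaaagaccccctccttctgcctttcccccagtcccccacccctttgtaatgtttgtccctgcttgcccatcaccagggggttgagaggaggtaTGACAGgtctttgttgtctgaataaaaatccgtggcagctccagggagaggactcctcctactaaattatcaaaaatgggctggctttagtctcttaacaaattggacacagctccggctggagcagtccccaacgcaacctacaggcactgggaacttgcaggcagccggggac
Tbr1: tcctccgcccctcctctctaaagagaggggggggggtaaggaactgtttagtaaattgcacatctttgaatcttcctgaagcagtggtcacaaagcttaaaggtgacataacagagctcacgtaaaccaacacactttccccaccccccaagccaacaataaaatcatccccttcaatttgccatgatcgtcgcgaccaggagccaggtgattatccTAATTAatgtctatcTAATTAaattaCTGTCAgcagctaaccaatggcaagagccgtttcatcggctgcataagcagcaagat
Each of the 3 windows held 1 MEIS core, as did 19.2% of the 32851 windows of this length in the table. Tbr1 also held 2 homeobox cores (5.29% of windows held any), and the T-box half-site TCACACC was found in 0 of the 3 (3.98% of windows). A match of letters is not a binding site, and 6 of the 9 members had an entry. Of the other entries, the downstream one of Slc17a6 and those of Spp1, Meis2 and Vamp1 held 0 MEIS cores.

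The tested genes most like these 3 in profile were picked by the smallest root mean square difference of centred log2 CPM over the 6 libraries, among 12163 genes of at least 5 CPM, a choice that itself fixes their likeness in KO 4. For Lhx9 they were Shox2, a homeobox gene (0.37), AW551984 (0.39) and Baiap3 (0.48). Shox2 was at 9.18, 1.47 and 5.74 CPM in KO 2, 4 and 6, against 5.59, 7.34 and 7.26 CPM in WT 1, 3 and 5. For Tbr1 the nearest were Slc15a2 (0.46), Ddn, which encodes the postsynaptic protein dendrin (0.68), and Aqp1 (0.76). Ddn was at 2.45, 31.1 and 4.16 CPM in KO and at 2.40, 2.11 and 2.71 CPM in WT. For Slc17a6 they were Zfhx3 (0.12), an unannotated locus (0.13) and Ndst4 (0.16), each lowest in KO 4 and highest in WT 5.

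Spp1 encodes osteopontin, a secreted phosphoprotein that binds integrins and CD44. It is made by large projection neurons and also by activated microglia, so both sources are possible in whole tissue. It lies on chromosome 5 (104435118 to 104441050). Its level was 21.1, 30.7 and 24.4 CPM in KO 2, 4 and 6, against 26.3, 20.7 and 25.5 CPM in WT 1, 3 and 5. KO 4 was the highest library and WT 3 the lowest, and the groups overlapped. The log2 fold change was 0.07 (SE 0.16, interval from -0.30 to 0.44, edgeR adjusted p = 1.0), and -0.08 without KO 4. Relative to Nefh, the log2 FPKM ratio was -1.47 ± 0.37 in KO libraries and -1.57 ± 0.24 in WT libraries (n = 3 each, SD; exact permutation p = 0.8, Benjamini-Hochberg 0.96).

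Microglia are a possible source of Spp1, and their markers were summed in each library. The 15 microglia markers summed to between 164 and 216 CPM in KO and between 137 and 147 CPM in WT. Their log2 fold changes were positive for 13, with a median of 0.43, and 0 were called. Fcrls (-0.79) and Gpr34 (-0.27) were negative, as were 51.2% of tested genes. At an edgeR unadjusted p under 0.05, 6 of the 15 were higher in KO and 1 was lower (2.75% of tested genes in either direction). Csf1r, the growth factor receptor of microglia, had a log2 fold change of 0.19. The 10 activated microglia markers summed to between 160 and 179.7 CPM in KO and between 127 and 156 CPM in WT; 7 were tested, 7 were positive and 0 were called (median 0.26). Clec7a, a receptor of activated microglia, had 3, 16 and 10 counts in KO 2, 4 and 6, against 0, 2 and 2 in WT 1, 3 and 5. Meningeal fibroblast markers, a further possible source, summed to between 909 and 1020.4 CPM in KO and between 521 and 896 CPM in WT (9 of 9 positive, median 0.26, 0 called). The part of these cells in the level of Spp1 was not tested.

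**Figure D4:**
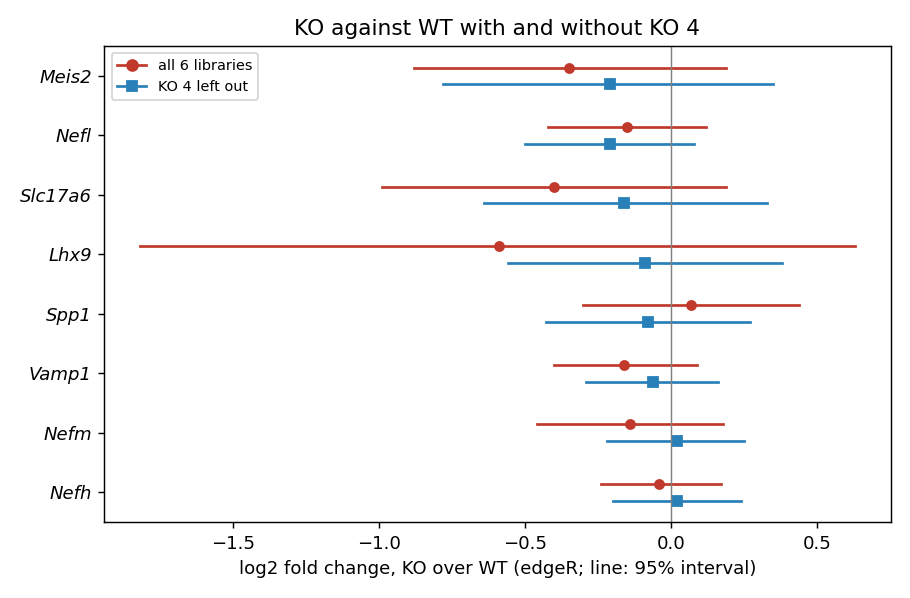
Log2 fold change of KO over WT for the 8 tested genes with its 95% interval (edgeR), from all 6 libraries (red circles) and with KO 4 left out (blue squares). Every interval includes 0, and Lhx9 shifts from -0.59 to -0.09 when KO 4 is left out.

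Genes around the members were read from 9 lists. In each list 0 genes were called in either direction. The 7 other markers of nuclear neurons were 4 positive and 3 negative, with a median log2 fold change of 0.04. Slc6a5, the glycine transporter of inhibitory nuclear neurons and Golgi cells, averaged 37.5 ± 4.87 CPM in KO libraries and 38.3 ± 2.06 CPM in WT libraries (n = 3 each, SD), a log2 fold change of -0.03. Dpp10, a potassium channel subunit, was at 0.14 (SE 0.14). Lmx1a, a factor of rhombic lip derivatives and of the choroid plexus, had the smallest unadjusted p of the list: it had 29, 50 and 26 counts in KO and 11, 18 and 8 in WT (log2 fold change 1.48, SE 0.41, unadjusted p = 0.00484 and edgeR adjusted p = 1.0), and its log2 fold change was 1.11 without KO 4. The 11 choroid plexus markers were positive too, summing to between 1038 and 3259 CPM in KO and between 434 and 1362 CPM in WT. Their median log2 fold change was 1.39, and 0.85 without KO 4, with 0 called. All 11 had an edgeR unadjusted p under 0.05, as did 2.75% of tested genes. Their part in Lmx1a was not tested.

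Lists of neurofilament partners and synaptic genes had medians just below 0. The granule cell markers, whose sums lay lower in KO without overlap, were negative in 12 of 12 (median -0.12, and -0.10 without KO 4; 0 called), and their part in these lists was not tested. Of 7 tested intermediate filament and linker genes 5 were negative (median -0.06), with the cytolinkers Macf1 at -0.06 (SE 0.09) and Dst at -0.09 (SE 0.09) and the progenitor filament Nes at 0.28 (SE 0.17). Of 32 genes of axonal microtubules, spectrin and transport 27 were negative (median -0.06), from -0.20 to 0.12. Alpha-spectrin Sptan1 was at -0.02, ankyrin-B Ank2 at -0.08, and Map1b, a microtubule-associated protein of growing axons, at -0.18 (SE 0.09, unadjusted p = 0.0707 and edgeR adjusted p = 1.0). Without KO 4 the median of the 32 was -0.01, and those of the vesicle fusion and fast-spiking channel lists given next were -0.06 and -0.05.

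Of 28 genes of vesicle fusion 21 were negative (median -0.08), with the membrane SNARE Snap25 at -0.04. Cplx2, a complexin that clamps vesicle fusion, was at 707, 681 and 681 CPM in KO 2, 4 and 6, against 769, 791 and 777 CPM in WT 1, 3 and 5. These groups did not overlap, as was so for 7.26% of tested genes, and Cplx2 was named for the smallest p of its list. The log2 fold change of -0.18 (SE 0.08, unadjusted p = 0.0556) had an edgeR adjusted p of 1.0. Of 13 fast-spiking channel genes 11 were negative (median -0.07), with the Kv3 channel Kcnc1 at -0.09 and the axonal channel Kcna1 at -0.21 (SE 0.11). The 11 tested glutamate packaging and recycling genes had a median of -0.02, with the astrocyte transporters Slc1a3 at -0.03 and Slc1a2 at 0.05 and the glutamine carrier Slc38a1 at -0.13.

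**Figure D5:**
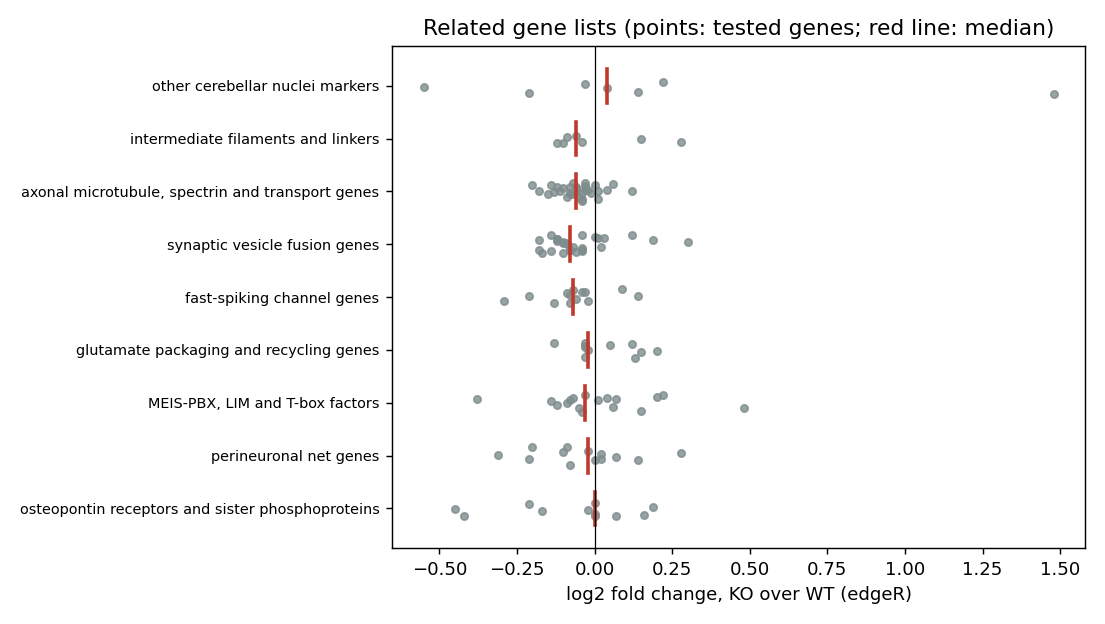
Log2 fold change of KO over WT (edgeR) for tested genes of 9 related lists; points are genes and the red line is the list's median. Medians lie between -0.08 and 0.04, and Lmx1a (1.48) is the point farthest from 0.

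Among 17 tested MEIS-PBX, LIM and T-box factors 8 were positive (median -0.03). Ldb1, the cofactor of LIM factors, was at 0.01. Eomes, a T-box factor of unipolar brush cells, averaged 48.0 ± 14.6 CPM in KO libraries and 62.3 ± 9.58 CPM in WT libraries (n = 3 each, SD). Its log2 fold change was -0.38 with an SE of 0.21 and an adjusted p of 1.0 by edgeR, while the 7 unipolar brush cell markers, Eomes and Lmx1a among them, summed to between 1126 and 1218 CPM in KO and between 1167 and 1249.9 CPM in WT. The 13 tested perineuronal net genes, which form the matrix around nuclear neurons, had a median of -0.02. Ptprz1, a receptor of net components, was at 0.02, the proteoglycan Bcan at 0.07 and the hyaluronan synthase Has3 at -0.21.

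Of the 11 tested genes for osteopontin receptors and its sister phosphoproteins 8 were negative, with a median of -0.00, and -0.09 without KO 4. The integrin genes Itgb1 and Itgav were both at -0.00. Cd44, a receptor of osteopontin and hyaluronan, was at 6.54, 7.68 and 6.39 CPM in KO 2, 4 and 6, against 8.78, 9.70 and 9.17 CPM in WT 1, 3 and 5. The groups did not overlap, as was so for 7.26% of tested genes, and Cd44 too was named for the smallest p of its list. Its log2 fold change was -0.42 (SE 0.17, unadjusted p = 0.0315, edgeR adjusted p = 1.0), and -0.51 without KO 4.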

How the data were processed

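RNA was extracted with TRIZOL and libraries were made by a sequencing company, per the labels' protocols. The submitters' processing notes list HISAT2 and DESeq2 (versions unstated) and the build GRCm38.p6. Counts per gene were deposited as whole numbers beside FPKM values made by the authors. The authors' group means are a normalized signal; their log2 fold changes, p-values and adjusted p-values compare KO with WT in the deposited table.

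Groups and animal numbers came from sample titles. Whole-table counts were fitted with edgeR 4.0.16 (quasi-likelihood F test, TMM, filterByExpr, Benjamini-Hochberg over 17142 genes; R 4.3.3), and calls were made at an adjusted p under 0.05. Each standard error is the size of the fold change (log2) divided by the square root of F, and 95% intervals use the test's degrees of freedom. The edgeR p-values set the difference between groups against the spread between the 3 animals per group. That spread was estimated partly from the other fitted genes. Ratios were compared by exact permutation. Alternatives used DESeq2 1.42.0, limma 3.58.1, other filters and scalings, and single libraries left out. The fit was tested on simulated data. Members, lists and tests were chosen with earlier results of these data known; within each list, the 2 genes of highest CPM and the 1 of smallest p were named, except for some that are not reported here, and genes named beyond that (Dlx1, Clec7a, Sox14, Dbh) were chosen after their values were seen. The forebrain and midbrain lists were added after the members' values were seen. Cell type lists are given as sums.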

Additional observations from a re-analysis of the deposited data

How the results depend on the processing

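The number of genes called over the whole table was 8, and it was 142 with no low-count filter, 45 by DESeq2, 40 with WT 5 and KO 4 both left out, and between 0 and 28 with single libraries left out (0 without WT 1 or WT 3, 2 without KO 2, 3 without KO 6, 17 without KO 4 and 28 without WT 5). With no filter and KO 4 left out, an alternative chosen after seeing the data, it was 141. The number of members called was 0 throughout, except for 1 (Tbr1) with no low-count filter. In 120 alternative values of the 8 tested members the lowest adjusted p was 0.362, 107 kept the sign and 13 changed it. The 126 alternative counts of called genes in the 9 lists gave 0 calls, and 110 of 126 list medians moved by less than 1 SD between replicates.

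Some members changed sign. Without KO 4, Spp1 was at -0.08, Nefh at 0.02 and Nefm at 0.02, with the same values when the low-count filter was dropped too, and Spp1 was at -0.02 without WT 3. With WT 5 and KO 4 both left out the log2 fold changes were 0.03 for Slc17a6, -0.04 for Spp1, 0.04 for Nefh, 0.08 for Nefm, 0.03 for Meis2 and 0.04 for Lhx9. With single libraries left out, Slc17a6 ranged from -0.77 to -0.16, Spp1 from -0.08 to 0.19, Nefh from -0.08 to 0.02, Nefm from -0.24 to 0.02, Lhx9 from -1.13 to -0.09, Meis2 from -0.59 to -0.10, Nefl from -0.22 to -0.02 and Vamp1 from -0.22 to -0.06. The differences of log2 ratios, again leaving out 1 library, ranged from -0.17 to 0.22 for Nefm/Nefl, from -0.13 to 0.10 for Nefl/Ina, from 0.00 to 0.22 for Nefh/Nefl, from -0.75 to -0.12 for Slc17a6/Slc17a7, from -0.16 to 0.05 for Vamp1/Vamp2 and from -0.10 to 0.27 for Spp1/Nefh. With WT 5 and KO 4 both left out they were 0.16 for Nefm/Nefl, 0.01 for Nefl/Ina, 0.05 for Slc17a6/Slc17a7, 0.13 for Vamp1/Vamp2, 0.12 for Nefh/Nefl and -0.08 for Spp1/Nefh. The cause was not tested. No paired analysis was made because the sample titles state no litter or other pairing of KO with WT animals. With 3 libraries per group, the members' intervals in the filtered fit had lower bounds from -1.82 (Lhx9) to -0.24 (Nefh). Their upper bounds ran from 0.09 (Vamp1) to 0.63 (Lhx9). Changes inside a member's interval were not excluded. Counting error limits Tbr1, with 3 to 15 counts outside KO 4.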

Other observations

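Outside the members, markers of brainstem neurons differed between WT animals. Slc5a7, the choline transporter of cholinergic neurons, had 10, 11 and 7 counts in KO 2, 4 and 6, against 39, 3 and 60 in WT 1, 3 and 5. Dbh, the enzyme that makes noradrenaline, had 4, 2 and 2 counts in KO, against 18, 8 and 35 in WT. Over the 22 brainstem neuron markers the sum lay between 8.26 and 9.5 CPM in KO and between 6.51 and 14.6 CPM in WT, with 3 of the list (Hoxb5, Hoxa5 and Hoxb3) at 0 in every library. Th, the enzyme of catecholamine synthesis and the most abundant of the list, was at 6.92, 6.28 and 5.03 CPM in KO, against 5.08, 4.85 and 2.49 CPM in WT.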
